A study of Homo sapiens with 4 samples.

Results

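CCNB1, CCNB2, PLK1 and KIF20A encode proteins that drive cells into and through mitosis. They were taken by symbol from the probe annotation, with the brightest probe set kept for each gene, and all 4 were found, each with 1 named probe set. They are 4 of the 11883 genes tested and of the 14884 genes named. The genes were chosen because they were lower with origamicin in this comparison, so their differences are described here without a test. Total RNA was hybridised to 4 Affymetrix arrays (Human Gene 2.0 ST) from SH-SY5Y, a line of adherent neuroblastoma cells of human origin. Cultures received either origamicin, which the submitters call a protein disulfide isomerase inhibitor (the enzyme forms disulfide bonds in the endoplasmic reticulum), at 30 µM for 24 h, or methanol, its solvent, for 24 h (mock). There were 2 arrays in each group. Replicates are labelled as biological, with no word on separate passages or days, so a p-value here covers no more than the spread between these arrays.

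Mitotic entry is switched on by the kinase CDK1 bound to a B-type cyclin, CCNB1 or CCNB2. The kinase PLK1 promotes activation of that complex, matures centrosomes and later acts in cytokinesis, and KIF20A is a kinesin motor of the central spindle on which PLK1 docks in late mitosis. In cycling cells the transcripts of all of these rise towards G2 and mitosis and are low in G1. Their promoters are known for the CCAAT box, read by the factor NF-Y, and the cell cycle genes homology region (CHR), read by MuvB complexes such as DREAM.

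The promoter windows of the members are shown because of this known promoter type, though only 2 of the 4 held a CHR hexamer as matched below. The sequences are from RefSeq (GRCh38.p14), with 250 bases before and 50 after the annotated start, and all 4 lie on the plus strand. They are CCNB1 at chr5:69166900-69167199, CCNB2 at chr15:59104896-59105195, PLK1 at chr16:23678639-23678938 and KIF20A at chr5:138178862-138179161. Capitals mark each match, on either strand, to the CCAAT box CCAAT, to the CHR hexamers TTTGAA and TTCGAA, and to TTTAAA. The last hexamer was added after the sequences were seen.
CCNB1: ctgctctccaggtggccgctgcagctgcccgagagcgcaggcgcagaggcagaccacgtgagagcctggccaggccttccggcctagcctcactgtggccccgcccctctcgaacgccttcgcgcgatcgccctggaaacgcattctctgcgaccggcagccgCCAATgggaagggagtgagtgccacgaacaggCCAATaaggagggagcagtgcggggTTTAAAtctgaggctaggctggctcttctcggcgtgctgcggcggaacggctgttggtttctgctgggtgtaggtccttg
CCNB2: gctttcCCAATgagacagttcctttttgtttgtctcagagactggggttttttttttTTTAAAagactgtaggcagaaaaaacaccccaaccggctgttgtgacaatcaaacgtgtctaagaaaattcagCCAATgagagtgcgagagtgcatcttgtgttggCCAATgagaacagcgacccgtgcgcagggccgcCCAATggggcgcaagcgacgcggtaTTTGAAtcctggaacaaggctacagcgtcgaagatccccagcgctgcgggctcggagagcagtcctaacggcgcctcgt
PLK1: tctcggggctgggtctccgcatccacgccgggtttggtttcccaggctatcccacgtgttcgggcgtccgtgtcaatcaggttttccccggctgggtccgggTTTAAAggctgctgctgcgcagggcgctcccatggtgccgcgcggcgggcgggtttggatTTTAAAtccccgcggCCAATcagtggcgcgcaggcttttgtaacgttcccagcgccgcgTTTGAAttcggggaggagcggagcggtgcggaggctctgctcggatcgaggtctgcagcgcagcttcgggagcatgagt
KIF20A: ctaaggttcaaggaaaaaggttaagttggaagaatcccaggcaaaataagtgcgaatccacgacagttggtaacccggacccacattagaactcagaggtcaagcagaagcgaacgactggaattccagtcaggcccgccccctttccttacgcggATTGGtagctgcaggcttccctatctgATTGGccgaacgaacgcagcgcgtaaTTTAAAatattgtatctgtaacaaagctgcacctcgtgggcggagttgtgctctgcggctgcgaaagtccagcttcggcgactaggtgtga

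All 4 windows held a CCAAT box, and matches did not overlap one another. CCNB2 had 4 boxes, beginning 244, 120, 87 and 54 bases before the start, and CCNB1 had 2, at 87 and 55. PLK1 had 1 box at 73, and KIF20A had 2 on the minus strand, at 94 and 67. CCNB2 and PLK1 each carried the CHR hexamer TTTGAA beginning 29 bases before the start. CCNB1 and KIF20A had no match to TTTGAA or TTCGAA and instead had TTTAAA, 30 and 41 bases before the start. TTTAAA occurred in all 4 windows. Counting TTTAAA, which was added after these sequences were seen, each gene had a hexamer between the start and the CCAAT box nearest it. That hexamer lay 25 bases downstream of the box in CCNB1 and CCNB2, 26 in KIF20A and 44 in PLK1, counted between first bases. With TTTGAA and TTCGAA alone, only CCNB2 and PLK1 had this order. Its share among other windows was not counted, so nothing is read from it. Of all 35116 RefSeq windows of this length, 34.6% held CCAAT, 15.2% TTTGAA, 1.45% TTCGAA and 12.2% TTTAAA. Among the 9053 genes tested that had a window, with the first listed window used, the shares were 35.9%, 9.89%, 1.68% and 7.52%. A match is a description of these letters and not evidence of binding.

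**Figure D1:**
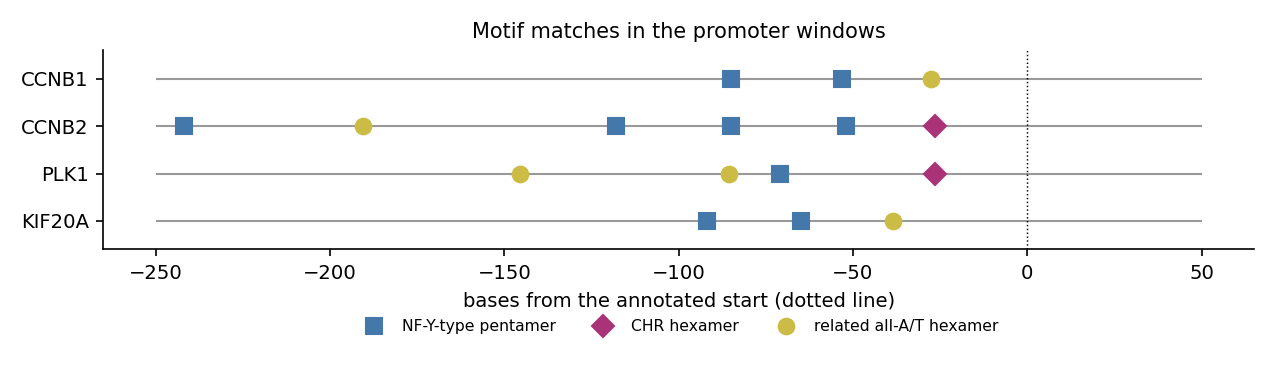
Positions of the motif matches in the promoter windows of CCNB1, CCNB2, PLK1 and KIF20A, in bases from the annotated start (x axis); squares are CCAAT boxes on either strand, diamonds TTTGAA and circles TTTAAA. In each gene a diamond or circle lies between the last square and the start. TTTAAA was added after the sequences were seen, and only CCNB2 and PLK1 have a diamond there.

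CCNB1, cyclin B1, the main mitotic cyclin, had deposited log2 values of 9.30 and 9.35 on the mock arrays and 8.99 and 9.00 on the origamicin arrays. Both origamicin values lay below both mock values, and the group means differed by -0.33 ± 0.06 (moderated SE, n = 2 per group; 95% interval -0.50 to -0.16), a level 20.3% lower. The SEs and intervals of the members take no account of how the genes were chosen, so they are not read as a test against 0. The smallest gap between the groups, from the lower mock array to the higher origamicin array, was 0.30, against 0.05 between the mock arrays and 0.0089 between the origamicin arrays.

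CCNB2, cyclin B2, a B-type cyclin found mainly at the Golgi, stood at 9.19 and 9.16 in mock and 8.77 and 8.86 in origamicin cells. The groups again did not overlap, and the difference was -0.36 ± 0.07 (95% interval -0.55 to -0.18), or 22.2% lower. Its widest replicate gap was 0.09, between the origamicin arrays, and the gap between the groups was 0.31.

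PLK1, the polo-like kinase, stood at 10.96 and 10.87 in mock and 10.55 and 10.51 in origamicin cells. Both origamicin arrays were below both mock arrays by at least 0.32, and the mock arrays differed by 0.09. Its difference of -0.38 ± 0.07 (95% interval -0.57 to -0.20), 23.2% lower, was the lowest of the 4. KIF20A, the mitotic kinesin, stood at 9.73 and 9.78 in mock and 9.36 and 9.42 in origamicin cells. Its groups were separate by 0.31, replicates differed by 0.05 in mock and 0.06 in origamicin, and the difference was -0.37 ± 0.07 (95% interval -0.54 to -0.19), 22.5% lower.

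**Figure D2:**
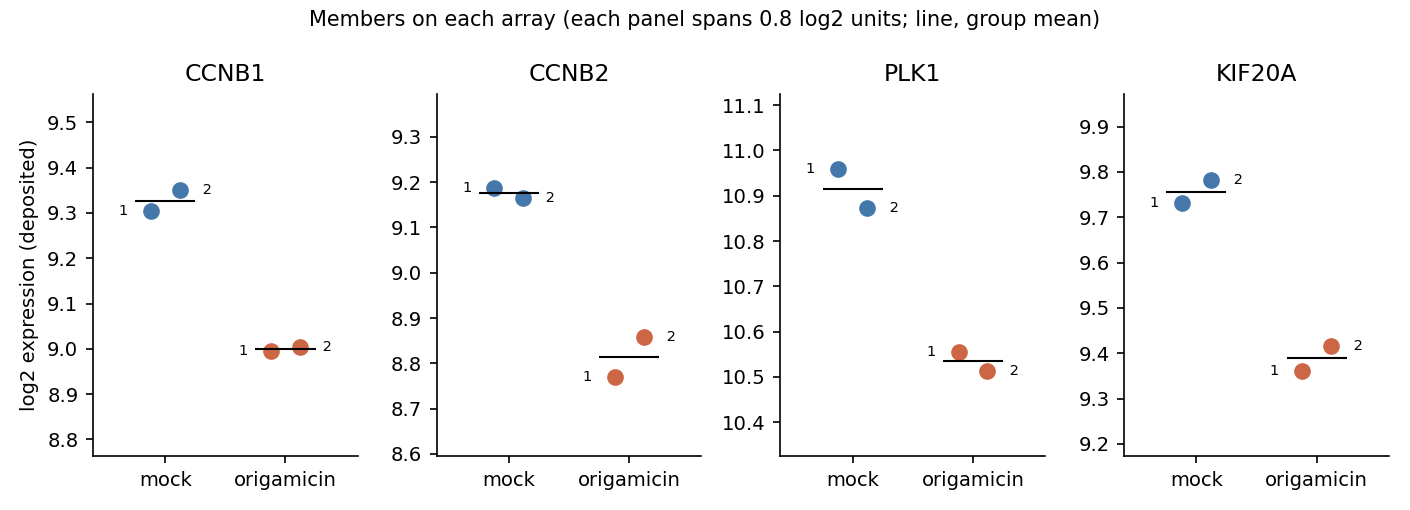
Deposited log2 expression (y axis; each panel has its own origin and the same span) of the 4 genes on each array, with 1 and 2 marking the replicate number and the line the group mean. In every panel both origamicin points lie below both mock points, by at least 0.30 for CCNB1 and 0.32 for PLK1.

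The 4 differences lay within 0.05 of one another on the log2 scale, less than the SE of any of them (0.06 to 0.07), so their order is not resolved. Their median was -0.36, against a median of -0.0072 over all genes tested. Averaged over the 4 genes, the log2 values were 9.80 and 9.79 on the mock arrays and 9.42 and 9.45 on the origamicin arrays. All 4 genes had groups that did not overlap, with origamicin lower, as did 25.8% of all genes tested, while in 22.7% they did not overlap with origamicin higher. Nothing is read from this count, since the genes were chosen on the comparison. Differences at least as low as that of CCNB1 were held by 469 of the genes tested, 3.95% of them. These are bulk RNA values, so fewer cells in G2 and mitosis and less of each RNA per such cell cannot be told apart.

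With single arrays left out or the values rescaled, CCNB1 ranged from -0.35 to -0.30, CCNB2 from -0.41 to -0.32, PLK1 from -0.42 to -0.34 and KIF20A from -0.39 to -0.34. Which of the 4 stood lowest changed with the array left out. Since the groups did not overlap, leaving out an array could not turn a sign.

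**Figure D3:**
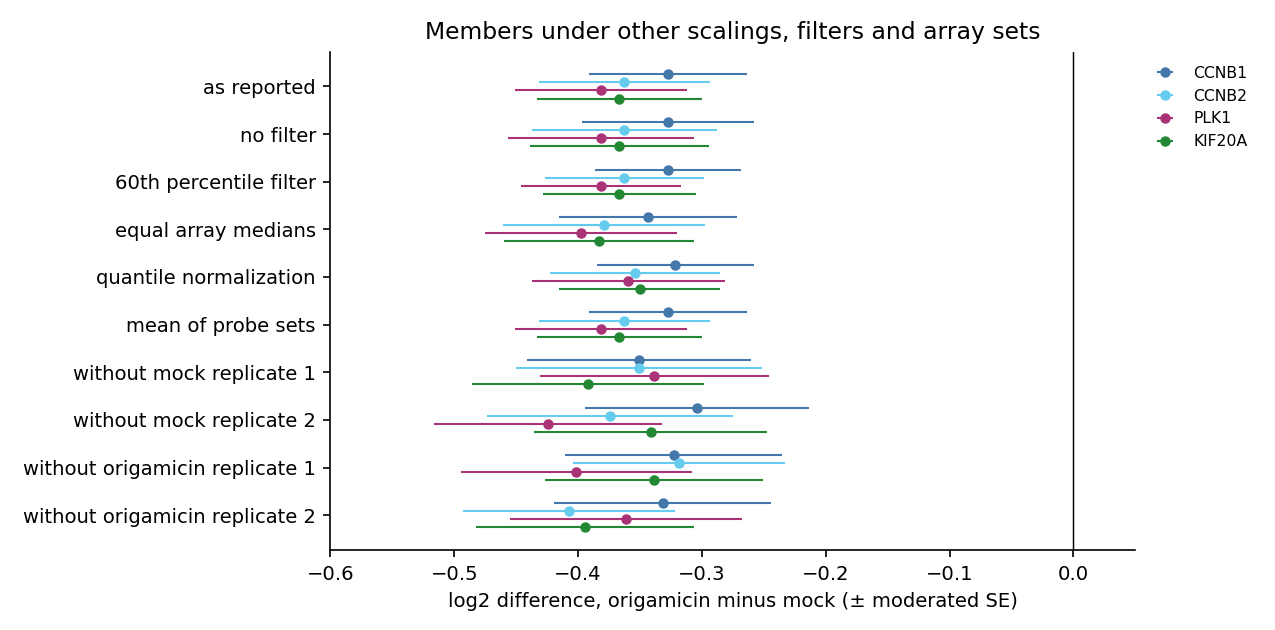
Log2 difference, origamicin minus mock (x axis, points with moderated SE), of the 4 genes as reported and under other filters, scalings and sets of arrays (y axis). All points lie between -0.42 and -0.30, and the order of the genes differs between rows.

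The genes most like the members were those with the smallest root mean square difference, over the 4 arrays, between a gene's mean-centred log2 values and the members' mean profile. They were the tRNA-editing enzyme DTD2, the transcriptional co-activator EYA1, C17orf100, LINC00526, the axonal junction gene CNTNAP1 and the cholinesterase BCHE, at 0.012 to 0.017 log2 units, and their differences ran from -0.37 (DTD2) to -0.34 (LINC00526). None of these 6 is in the mitotic lists below. The members themselves lay at 0.022 (KIF20A), 0.023 (CCNB2), 0.025 (CCNB1) and 0.0395 (PLK1) from their own mean profile. The nearest genes of the mitotic lists were CKAP2 at 0.0353, CKS2 at 0.0392 and UBE2S at 0.052. With 4 arrays in 2 groups, many unrelated genes can share such a profile.

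Other genes of mitosis, with some relatives and regulators that act elsewhere too, were drawn from 5 lists of 113 gene symbols in all. None of these symbols is a member's, and the lists were written with earlier results of these data known. Of the 113 symbols, 90 had a named probe set and 88 passed the filter on dim genes. Their median difference was -0.09, and 62 of 88 had a lower mean with origamicin (70.5%, against 52.1% of all genes tested). In 51 of 88 (58.0%) both origamicin arrays were below both mock arrays, against 25.8% of all genes tested. The genes of these lists were brighter, with a median level of 8.75 against 6.54 over all genes tested, and shares at like level were not compared. In 3 of the 88 origamicin was lower by at least as much as for CCNB1: HMMR, UBE2S and CKS2. The same held for 469 of the 11883 genes tested (3.95%). That count includes the members, which were chosen for being lower, while these lists leave them out. The cutoff is also the difference of a member. Whether such differences were more frequent among genes of mitosis therefore cannot be read from these counts.

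No gene of the series passed an adjusted p of 0.05 in the limma fit (0 of 11883, 0%). An unadjusted p under 0.05 was reached by 1950 genes (16.4%), of which 8.42% of the genes tested were lower and 7.99% higher. The mitotic lists held 14 lower genes (15.9% of 88) and 4 higher ones at that level. The 14 became 6 and 4 without mock replicate 1 or 2 and 5 without origamicin replicate 1, and the lower genes of the whole series went from 1001 to 636 and 602 without mock replicate 1 or 2. When limma was allowed a spread that varies with intensity, 511 genes passed an adjusted p of 0.05 (4.3%), 2.16% of the genes tested lower and 2.14% higher. Among the 88 genes of the mitotic lists 5 then passed lower (5.68%), HMMR, CKS2, CKAP2, UBE2S and CCNA2. The 2 that passed higher were PLK2, a stress-responsive polo-like kinase, and CDC25A, which acts from the G1/S transition onward. These lower calls became 0 without mock replicate 1 or 2, 1 without origamicin replicate 1 and 6 without origamicin replicate 2.

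**Figure D4:**
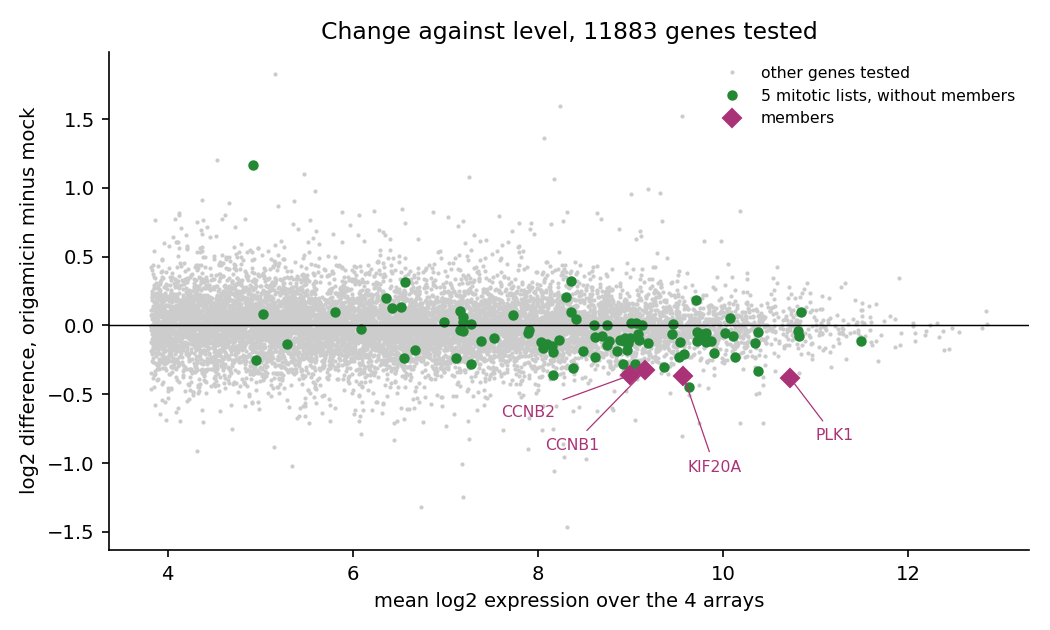
Log2 difference, origamicin minus mock (y axis), against the mean log2 expression over the 4 arrays (x axis) for the 11883 genes tested; circles are the 88 genes of the mitotic lists and diamonds the 4 members. Most circles lie slightly below 0, with a median of -0.09, and the members lie at -0.38 to -0.33; PLK2 is the circle above 1.

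Among the genes that control cyclin B-CDK1, 10 of 14 had a lower mean (median -0.11). CDK1, the kinase partner of both cyclins, stood at 9.18 and 9.21 in mock and 8.81 and 9.01 in origamicin cells, a difference of -0.28 ± 0.09. Its groups did not overlap, but it did not pass with an intensity trend (limma adjusted p = 0.073). CKS2, a small subunit bound to CDK1, stood at 10.60 and 10.49 in mock and 10.19 and 10.23 in origamicin cells (-0.33 ± 0.07; limma adjusted p = 0.019 with an intensity trend). CCNA2, cyclin A2, which acts before the B-type cyclins, stood at 10.24 and 10.25 against 9.99 and 10.04 (-0.23 ± 0.06; limma adjusted p = 0.034 with an intensity trend).

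CDC25A, a phosphatase that activates cyclin-dependent kinases from the G1/S transition onward, went the other way. It stood at 8.22 and 8.18 in mock and 8.54 and 8.51 in origamicin cells (0.32 ± 0.06; limma adjusted p = 0.022 with an intensity trend). MASTL, the Greatwall kinase, which restrains the phosphatase opposing CDK1, stood at 0.06 ± 0.08, and CDC25B, the phosphatase that acts at mitotic entry, at 0.02 ± 0.08, with overlapping groups. CCNB3, the third B-type cyclin, was named on the array but fell under the filter on dim genes.

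Of the polo-like and Aurora kinase list, 7 of 12 had a lower mean (median -0.06), and among the relatives of PLK1 the one that passed was higher. PLK2, a stress-responsive polo-like kinase, stood at 4.09 and 4.60 in mock and 5.45 and 5.57 in origamicin cells, a difference of 1.17 ± 0.18 (limma adjusted p = 0.023 with an intensity trend). Its mock level was near the filter of 3.82, so array background can raise it and the size of the difference is uncertain. PLK3, another stress-responsive relative, stood at 6.39 and 6.41 in mock and 6.73 and 6.71 in origamicin cells (0.32 ± 0.06). It did not pass with an intensity trend (limma adjusted p = 0.078). PLK4, which controls centriole duplication, stood at -0.11 ± 0.12 with overlapping groups, and PLK5 at -0.14 ± 0.12, also with overlapping groups.

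AURKA, the Aurora kinase that activates PLK1, stood at 7.33 and 7.51 in mock and 7.07 and 7.22 in origamicin cells (-0.28 ± 0.10). AURKB, the Aurora kinase of the chromosomal passenger complex, stood at -0.20 ± 0.09 and NEK6, a mitotic kinase, at -0.24 ± 0.07. In these 3 genes both origamicin arrays were below both mock arrays, and none passed with an intensity trend (limma adjusted p = 0.146, 0.132 and 0.170). They were the only genes of the 12 in the list with groups separate in that direction (25%, against 25.8% of all genes tested). In 3 others the groups were separate with origamicin higher. NEK2, the centrosome kinase, stood at -0.08 ± 0.08 with overlapping groups. The remaining genes of the list, the kinases NEK7 (0.11 ± 0.08), NEK9 (0.10 ± 0.07) and AURKC (0.08 ± 0.13) and the centrosome protein CEP192 (-0.04 ± 0.07), did not pass, and NEK9 was the one of these 4 whose groups did not overlap.

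In the central spindle and cytokinesis list, which holds the partners of KIF20A, 10 of 13 had a lower mean, with a median of -0.06. No gene of it passed in either fit, and none reached an unadjusted limma p of 0.05 on the lower or higher side. Its smallest p on the lower side were those of the centromeric histone CENPA (-0.18 ± 0.09), the abscission protein CEP55 (-0.13 ± 0.07) and the RhoA activator ECT2 (-0.12 ± 0.07). On the higher side, the proliferation marker MKI67 stood at 10.80 and 10.78 in mock and 10.90 and 10.88 in origamicin cells (0.10 ± 0.06), KIF4A at 0.02 ± 0.08 and KIF14 at 0.01 ± 0.07. KIF20B, the paralog of KIF20A, was named after its values were known and stood at 9.10 and 9.13 in mock and 8.99 and 9.11 in origamicin cells (-0.06 ± 0.07), with overlapping groups.

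Of the spindle and kinetochore genes, 16 of 21 had a lower mean (median -0.08). HMMR, a spindle assembly protein, stood at 9.85 and 9.86 in mock and 9.30 and 9.53 in origamicin cells (-0.44 ± 0.10; limma adjusted p = 0.024 with an intensity trend). It was the one gene of the 88 with a lower difference than PLK1, while 290 of the 11883 genes tested had one. The origamicin arrays of HMMR lay further apart than those of any member. CKAP2, a microtubule-associated protein, stood at 9.50 and 9.53 against 9.17 and 9.25 (-0.30 ± 0.07; limma adjusted p = 0.023 with an intensity trend). The kinetochore subunit NDC80 stood at -0.23 ± 0.07 without passing (limma adjusted p = 0.061 with an intensity trend). SMC2 of condensin stood at 0.18 ± 0.07, the spindle pole protein NUMA1 at 0.08 ± 0.07 and the cohesin protector SGO2 at 0.03 ± 0.07.

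The anaphase-promoting complex marks B-type cyclins and other mitotic proteins for degradation, and the spindle checkpoint holds it back. Of its 28 tested genes and regulators, 19 had a lower mean (median -0.11). UBE2S, the ubiquitin-conjugating enzyme that extends chains on its substrates, stood at 8.412 and 8.275 in mock and 7.999 and 7.964 in origamicin cells (-0.36 ± 0.08; limma adjusted p = 0.030 with an intensity trend). FBXO5, an inhibitor of the complex, stood at -0.23 ± 0.07 and the subunit ANAPC16 at -0.18 ± 0.06. The subunits CDC26 (0.20 ± 0.06), ANAPC2 (0.13 ± 0.07) and ANAPC13 (0.21 ± 0.11) stood above 0. The activators CDC20 (-0.23 ± 0.10) and FZR1 (-0.16 ± 0.08) were named after their values were seen, and in both the groups did not overlap.

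Of 12 tested genes for factors that read G2/M promoters, 5 had a lower mean, and the median was 0.02. FOXM1, an activator of G2/M genes, stood at 9.66 and 9.54 in mock and 9.79 and 9.74 in origamicin cells (0.16 ± 0.08), with both origamicin arrays above both mock arrays. MYBL2, which encodes the activator B-MYB, stood at 10.27 and 10.29 against 10.21 and 10.21 (-0.07 ± 0.06). RBL1, which encodes p107, a pocket protein of the DREAM complex, stood at 8.96 and 8.90 in mock and 9.23 and 9.36 in origamicin cells (0.37 ± 0.08) and was the one gene of this list to pass with an intensity trend (limma adjusted p = 0.023). The MuvB subunits LIN54 (0.19 ± 0.09), LIN52 (0.13 ± 0.09), LIN37 (0.08 ± 0.07) and LIN9 (-0.02 ± 0.09), the related pocket protein RBL2 (0.0019 ± 0.06) and the kinase DYRK1A (0.05 ± 0.06) did not pass. Nor did the E2F partners TFDP1 (-0.11 ± 0.07) and TFDP2 (-0.05 ± 0.08) or the histone-binding subunit RBBP4 (-0.02 ± 0.07). No gene of the list was lower at an unadjusted limma p under 0.05. E2F4 and the NF-Y subunits NFYA, NFYB and NFYC were not analysed here.

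Of 19 genes of checkpoint signalling and its regulation, CDK inhibition and G2/M repression, 7 were named and tested. The checkpoint kinase CHEK1 stood at 8.91 and 8.85 in mock and 9.09 and 9.09 in origamicin cells (0.21 ± 0.06), and the repressor E2F7 at 7.64 and 7.66 against 7.91 and 7.81 (0.21 ± 0.07). Neither passed with an intensity trend (limma adjusted p = 0.061 and 0.125). The related repressor E2F8 stood at 0.13 ± 0.08, SFN, which encodes 14-3-3 sigma, at -0.23 ± 0.14, ATR at -0.09 ± 0.08 and CHEK2 at 0.02 ± 0.07.

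Genes of earlier cell cycle phases held both higher and lower calls with an intensity trend. Of 49 listed DNA replication genes 22 were tested, and 8 of these had a lower mean (median 0.06). Of 19 listed G1 genes 13 were tested, and 4 of these had a lower mean (median 0.15), against 52.1% of all genes tested. The replication licensing genes CDC6 (0.23 ± 0.06) and CDT1 (0.28 ± 0.09) and the replisome gene GINS3 (0.17 ± 0.06) had the smallest p on the higher side and did not pass with an intensity trend. The helicase subunit MCM7 stood at 10.59 and 10.63 in mock and 10.12 and 10.11 in origamicin cells (-0.50 ± 0.06) and passed lower with an intensity trend (limma adjusted p = 0.0024). MCM6 (-0.19 ± 0.08) and CDC45 (-0.11 ± 0.07), the next on the lower side, did not. MYC, a transcription factor that promotes G1 progression, stood at 8.94 and 9.07 in mock and 7.98 and 8.08 in origamicin cells, and this difference of -0.97 ± 0.08 passed as well (limma adjusted p = 0.0019 with an intensity trend). E2F1, a transcription factor of S phase genes, stood at 8.002 and 8.039 against 8.252 and 8.254 (0.23 ± 0.06) and did not pass (limma adjusted p = 0.062 with an intensity trend). CCND1, cyclin D1, stood at 10.41 and 10.40 in mock and 10.65 and 10.62 in origamicin cells (0.23 ± 0.06; limma adjusted p = 0.029 with an intensity trend), and CCND3, cyclin D3, at 0.30 ± 0.09 without passing. CDK6 (-0.03 ± 0.06) and E2F3 (-0.02 ± 0.07) had the next smallest p on the lower side after MYC. The G1 median was 0.06 when all named probe sets of a gene were averaged. Differences between these lists and the members were not tested.

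**Figure D5:**
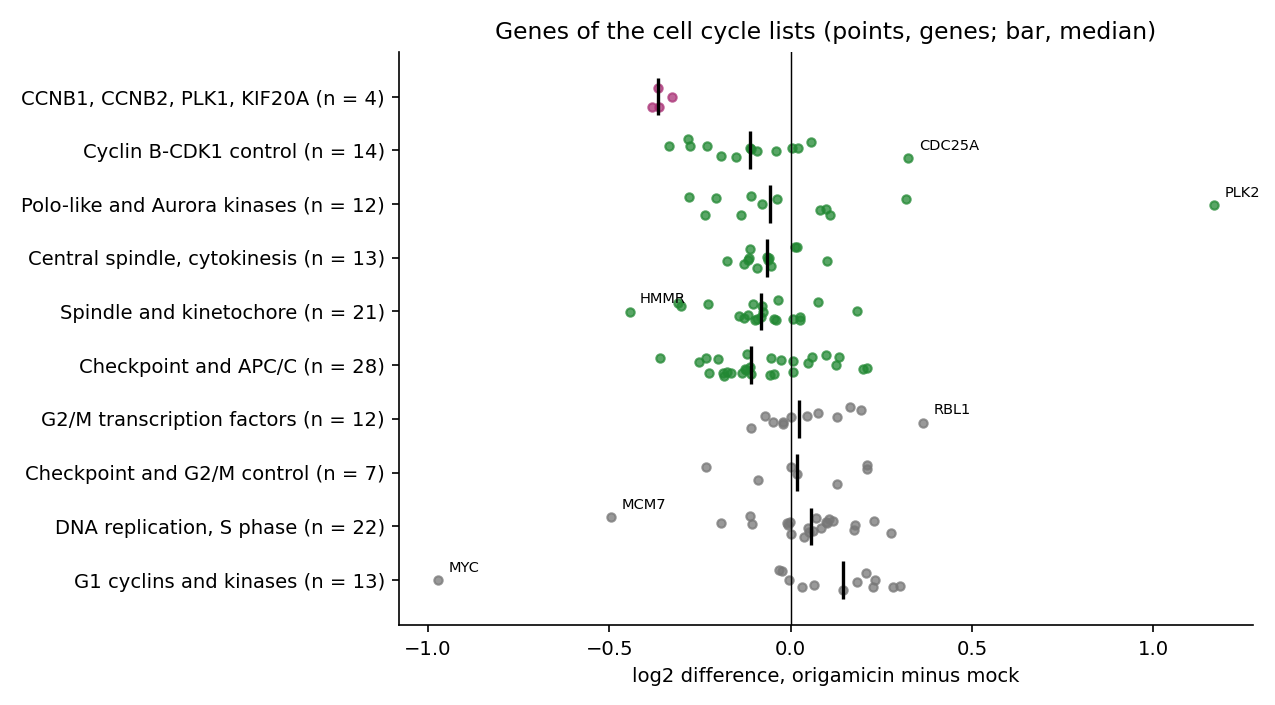
Log2 difference, origamicin minus mock (x axis), of every tested gene of each cell cycle list (y axis; points are genes, spread vertically for legibility, and bars are medians). The 5 mitotic lists have medians from -0.11 to -0.06, and the G1 list has a median of 0.15 with MYC as its lowest point.

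Promoter motifs were set beside these differences as a description. A window was found for 80 of the 88 genes of the mitotic lists and for 9053 of the genes tested. The window listed first was used for genes with several. Among the 80, 52.5% held TTTGAA or TTCGAA and 58.8% CCAAT, against 11.3% and 35.9% of the genes tested. The 30 of these 80 genes with both kinds of match had a median difference of -0.10, with 24 lower. The other 50 had a median of -0.08, with 32 lower. This difference between the medians was not tested. HMMR, CKS2 and CDK1 held both, while CCNA2, CKAP2 and UBE2S did not. TTTAAA, added after the members' windows were seen, was held by 17.5% of the 80 and 7.52% of the genes tested.

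The labelled cell type was checked against its markers. Of 15 tested noradrenergic neuroblastoma markers, DBH stood at 12.53 on both mock arrays and HAND2, GATA3 and ISL1 above 11, while TH was dim, at 5.52 and 5.82. Marker levels moved beside the members: 13 of 15 noradrenergic markers had a lower mean with origamicin (median -0.17; list mean 10.00 and 10.03 in mock, 9.77 and 9.78 in origamicin), against 52.1% of all genes tested. With an intensity trend 6 of 15 passed lower (2.16% of all genes tested did): CHGA (-0.80 ± 0.09), CHGB (-0.76 ± 0.08), DDC (-0.59 ± 0.06), RET (-0.43 ± 0.07), ISL1 (-0.30 ± 0.07) and TFAP2B (-0.20 ± 0.07). The 2 above 0, KLF7 (0.05 ± 0.07) and HAND2 (0.04 ± 0.07), did not pass. The noradrenergic markers were bright, with a median level of 10.31 against 6.54 over all genes tested. Shares at like level were not compared. Of 18 mesenchymal markers 12 had a higher mean (median 0.08; list mean 6.01 and 5.94 in mock, 6.13 and 6.08 in origamicin). With an intensity trend 4 of 18 passed higher (2.14% of all genes tested did): FOSL1 (0.76 ± 0.07), VIM (0.45 ± 0.07), FN1 (0.37 ± 0.08) and SNAI2 (0.30 ± 0.08). On the lower side NOTCH3 (-0.20 ± 0.09), MEOX2 (-0.14 ± 0.13) and TWIST1 (-0.05 ± 0.07) did not pass. The 6 glial markers had a median of 0.04, and their list mean was 4.65 and 4.68 in mock and 4.66 and 4.76 in origamicin cells. None of them passed: GFAP stood at 0.23 ± 0.16, ERBB3 at 0.16 ± 0.12, SOX10 at 0.10 ± 0.11, MBP at -0.02 ± 0.11, S100B at -0.03 ± 0.17 and FOXD3 at -0.18 ± 0.12. The part of these shifts in the members' differences was not tested. Across genes, the mock arrays correlated at r = 0.995 with each other, the origamicin arrays at 0.994, and arrays across the groups at 0.991 to 0.992.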

How the data were processed

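The authors deposited log2 expression, one value per probe set and array, for 4 arrays; RMA and limma are named without versions in the submitters' processing notes, and the genome build was not given in the sources used here. Values between 0.574 and 14.5, with medians of 4.37 to 4.42 per array, were not normalized again. Arrays have no counting depth, and their number limits the precision. Of 53617 probe sets 16098 carried 1 gene symbol, none carried several and 37519 are unnamed here. The probe set with the highest mean was kept per gene, and genes with a mean under 3.82, the 40th percentile over probe sets, were left out, which left 11883 genes. The comparison used lmFit and eBayes of limma 3.58.1 (R 4.3.3; two-sided, no covariate), with Benjamini-Hochberg adjustment over all genes tested and a threshold of 0.05. The fit was run on simulated data with the same spread for every gene and with differences larger than those of the members. That check covers neither a spread that varies with intensity nor differences of the members' size. Alternatives were no filter, a 60th percentile filter, equal medians, quantile normalization, the mean of probe sets, an intensity trend, robust eBayes, a replicate block and leaving out each array. The intensity trend combined with a left-out array or with the block was added after seeing the data.

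The members and lists were chosen with earlier results of these data known. The rule for named genes took the members, the 6 genes with the most similar profile, every tested gene of lists with at most 12, and from longer lists the genes past the threshold with or without a trend and the 3 with the smallest p in each direction. One gene that this rule takes is not reported here. Deviations from the group means of same-numbered arrays correlated at r = -0.02 across genes, so the replicate numbers were not taken to pair the arrays.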

Additional observations from a re-analysis of the deposited data

How the results depend on the processing

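The differences of CCNB1, CCNB2, PLK1 and KIF20A and their median (-0.38 to -0.33) moved by less than the moderated SD between replicates with equal medians, with quantile normalization and with each array left out. The other filters and variance models, the mean of probe sets and the replicate block cannot change these differences, and the leave-outs cannot turn the sign of groups that do not overlap. The counts of genes past an adjusted p of 0.05 with limma were 0 in both directions as reported, with no filter, with equal medians, with quantile normalization, with the mean of probe sets, with robust eBayes, with each array left out and with a replicate block. The block gave 0 higher and 0 lower genes. The 60th percentile filter gave 51 higher and 41 lower genes, an intensity trend 254 and 257, and the trend with a replicate block 145 and 132. With the trend, leaving out mock replicate 1 gave 34 higher and 26 lower genes, mock replicate 2 gave 35 and 23, origamicin replicate 1 gave 105 and 91, and origamicin replicate 2 gave 148 and 175. In the mitotic lists the trend gave 2 higher and 5 lower genes and the trend with the block 2 and 4. With the trend and single arrays left out they ran from 0 to 1 higher and 0 to 6 lower. The median of the mitotic lists ran from -0.11 to -0.07. The cause of these changes was not tested.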
